A study of Mus musculus with 10 samples.

Results

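The 10 genes described here make and load the peptides that class I molecules of the major histocompatibility complex (MHC) present at the cell surface: Tap1, Tap2, Tapbp, B2m, H2-K1, H2-D1, Psmb8, Psmb9, Psmb10 and Nlrc5. They were found by symbol among 49671 listed genes, each at 1 Ensembl identifier. The set was chosen by a measured value: Tap1 was already known to be among the strongest rises of this same comparison, and the other 9 are genes of its pathway, named by function with earlier results of these data known. The difference between genotypes in these 10 genes is therefore a description, given with its error and with no p-value, and counts of calls among them are descriptions too.

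RNA was sequenced from sorted neural crest cells of single mouse embryos at embryonic day 10.5, of mixed 129/Sv and C57BL/6 strain background. The 5 p53_activated embryos carried the alleles Wnt1Cre, R26mTmG and p53LSL-25,26/+, which release a stabilised p53 protein where the recombinase is active. The 5 control embryos were littermates with Wnt1Cre, R26mTmG and p53+/+. Every embryo of both groups thus carried the Cre and the reporter, and each library came from the green fluorescent cells of 1 embryo. Wnt1-Cre is active in the dorsal neural tube and the neural crest that leaves it, so neural tube cells can be among the sorted cells.

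In the class I pathway, the proteasome cuts cytosolic proteins into peptides, and the transporter formed by Tap1 and Tap2 carries them into the endoplasmic reticulum. There tapasin, the product of Tapbp, holds the transporter next to newly made class I heavy chains paired with beta-2 microglobulin. In cells exposed to interferon, the subunits encoded by Psmb8, Psmb9 and Psmb10 take the places of the standard subunits Psmb5, Psmb6 and Psmb7, and Nlrc5 acts as the transactivator of class I genes. Tap1 is known in human cells as a target of p53, and it shares a promoter with its divergent neighbour Psmb9. Early embryonic tissue is known for low class I expression.

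Tap1 and Psmb9 point away from each other on chromosome 17. In RefSeq on GRCm38.p6 the first base of Psmb9 (minus strand, 34187330) lies 226 bases from that of Tap1 (plus strand, 34187556). The 225 bases between these starts, chr17:34187331-34187555 on the plus strand, are shown because the RefSeq transcripts of both genes run outwards from it. The log2 fold change was 4.58 ± 0.28 for Tap1, which was chosen for its rise, and 1.46 ± 0.48 for Psmb9. In the GENCODE annotation Psmb9 reaches to 34187764, past this start of Tap1. Capitals mark the only GC box match (GGGCGG on either strand).

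Psmb9 to Tap1: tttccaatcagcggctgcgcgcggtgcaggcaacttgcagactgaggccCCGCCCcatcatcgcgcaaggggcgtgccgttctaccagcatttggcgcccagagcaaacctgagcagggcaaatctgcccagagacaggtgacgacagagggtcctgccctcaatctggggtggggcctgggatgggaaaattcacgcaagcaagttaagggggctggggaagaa

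The GC content of this stretch was 61.3%, and the median over all 32851 promoter windows of 300 bases in the RefSeq table was 52.7%. Of the 10 genes, 8 had a window, which runs from 250 bases before to 50 bases after the start. No p53 half-site (perfect matches to the consensus decamer, on both strands) was found in any of these windows, against 8.36% of all windows. This covers only these letters in these windows and says nothing of p53 binding elsewhere. The GC box was found in the windows of Tap1, Psmb9 and Tapbp and in 35.7% of all windows. The windows of Tap1 and Psmb9 share 275 bases, and their match is the same site, the one in capitals above.

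The heavy chain genes H2-K1 and H2-D1 hold matches to the interferon response core (AANNGAAA, both strands) and to the NF-kB core (GGGNNTTCC, both strands). The first motif was in 23.9% and the second in 5.82% of all windows, and B2m had a match to the first. The stretches of 60 bases that hold both motifs are shown to compare the genes, with the matches in capitals. H2-K1 is from chr17:34000409-34000468 on the minus strand, beginning 121 bases before the start, and H2-D1 from chr17:35262913-35262972 on the plus strand, beginning 181 bases before it (RefSeq, GRCm38.p6).

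H2-K1: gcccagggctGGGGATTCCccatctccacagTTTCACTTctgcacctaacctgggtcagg
H2-D1: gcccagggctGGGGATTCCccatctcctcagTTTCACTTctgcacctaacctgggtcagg

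These stretches were identical at 59 of 60 bases. The coding parts of class I heavy chain genes are also known to be much alike, so reads can be divided wrongly among them, and their counts are uncertain. The windows of Tap1, Psmb8, Psmb9, Psmb10 and Tapbp held neither motif. As for the p53 half-site, this covers only these letters in these windows and says nothing of other forms or places of such sites.

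Library totals ran from 14644162 to 28379562 counts in p53_activated embryos and from 12368058 to 23514828 in controls. Levels are CPM (counts scaled to library size), normalised between libraries by the TMM method. A gene was called when its adjusted p in the edgeR quasi-likelihood test over all 14528 tested genes was under 0.05, which 7.23% of them reached. Cdkn1a, a p53 target that checks the labels, rose to 105 ± 11.9 CPM in p53_activated libraries, against 7.93 ± 1.59 CPM in control libraries (SD, n = 5 each). Trp53 itself was at 29.1 ± 2.99 CPM in p53_activated and 18.2 ± 5.12 CPM in control libraries, which checks the labels only in part because the engineered allele lies in that gene. Neural crest and arch markers summed to 284 to 348 CPM in p53_activated and 285 to 371 CPM in control libraries over 10 genes. Of these 10, Snai2 was called lower (8.83 CPM in p53_activated and 17 CPM in control embryos, log2 fold change -0.94 ± 0.26, adjusted p = 0.0416). Neural tube markers summed to 867 to 1170 CPM in p53_activated and 668 to 1120 CPM in control libraries over 6 genes, with none called by edgeR. Most of that sum was Nes, with means of 898 CPM in p53_activated and 821 CPM in control embryos. Sox2, Pax6, Pax3, Otx2 and Wnt1 each had means of at most 33.1 CPM in either group, so the sum says little about them. Log2 fold changes of these markers ran from -0.0 for Sox2 to 0.67 for Wnt1. In such bulk samples fewer cells of a type and less RNA per cell cannot be told apart.

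Of the 10 genes, 7 had enough counts to be tested, and Tap1 was the only one called higher in p53_activated embryos, against 4.49% of all tested genes. None was called lower by edgeR, against 2.74%. At an unadjusted p under 0.05 there were 2 higher (Tap1 and Psmb9) and 1 lower (B2m), and these were also the calls of DESeq2, under which 11.8% of genes with an adjusted p were called. The limma-voom fit called Tap1 only, and 897 genes in all. The share of all tested genes with an unadjusted p under 0.05 is not given here. Counts at that threshold, here and in the lists below, thus have no share to be read against. Tap2, Psmb8 and Nlrc5 were too low to be tested. Since Tap1 was picked for this rise, nothing is read from these counts. The median log2 fold change was 0.02 over the 6 tested genes other than Tap1, and -0.01 over all tested genes.

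**Figure D1:**
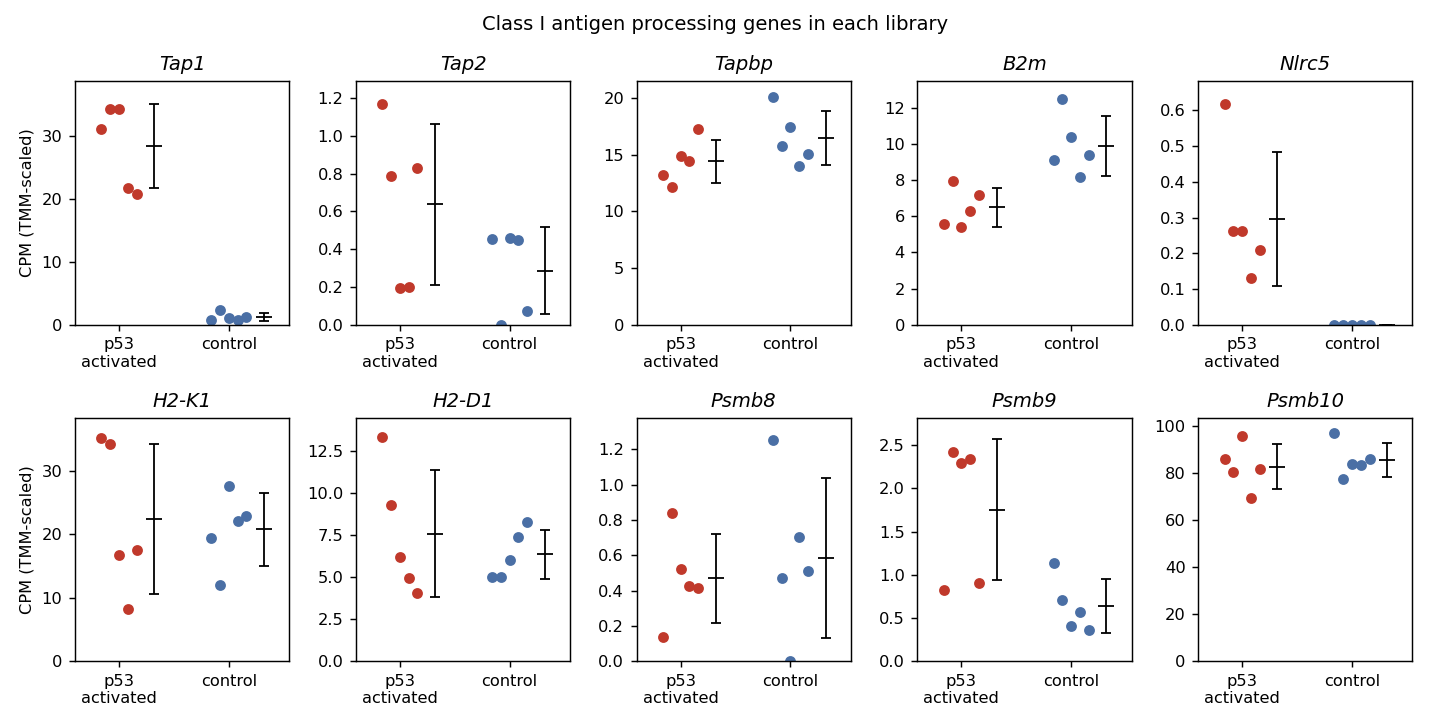
Each panel plots the CPM of 1 gene (linear axis from 0), with p53_activated libraries in red on the left and control libraries in blue on the right; points are single embryos, and the bar is the mean ± SD over 5. The p53_activated libraries lie above all control libraries for Tap1 (20.7 to 34.3 against 0.739 to 2.28 CPM) and Nlrc5, below them for B2m, and overlap them in the other 7 genes.

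Tap1 (ENSMUSG00000037321, chromosome 17, 34187553 to 34197225), 1 of the 2 chains of the peptide transporter, had 31.1, 34.3, 34.3, 21.7 and 20.7 CPM in p53_activated replicates 1 to 5. In control replicates 1 to 5 it had 0.739, 2.28, 1.12, 0.766 and 1.17 CPM. The groups were far apart, and the lowest p53_activated embryo stood well above the highest control. As raw reads this was 298 to 659 counts per p53_activated library against 12 to 29 per control library. The log2 fold change was 4.58 ± 0.28 (SE), a 23.9-fold difference, which ranked Tap1 in place 10 of all tested genes. Over 20 other settings it stayed between 4.45 and 4.89.

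Tap2 (ENSMUSG00000024339, chromosome 17, 34203527 to 34216321), the other chain of the same transporter, had 17, 15, 3, 6 and 12 counts in p53_activated replicates 1 to 5. It had 8, 0, 11, 7 and 1 counts in control replicates 1 to 5. The groups overlapped, and no library of either group exceeded 1.17 CPM. The summed counts were 53 in p53_activated and 27 in control libraries, a ratio of 1.76 with a 95% exact interval of 1.09 to 2.9 that covers counting error only and not the spread between embryos. Per kb of exon, Tap1 stood at 5.19 ± 1.23 CPM and Tap2 at 0.168 ± 0.113 CPM in p53_activated embryos. In control embryos these levels were 0.222 ± 0.115 and 0.0757 ± 0.0607 CPM per kb. Part of the Tap2 exons, 18.5% of their length, overlaps other annotated genes, and no source used here says whether counting used the strand, so its count is uncertain.

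Tapbp (ENSMUSG00000024308, chromosome 17, 33915899 to 33929292), which encodes tapasin, had 13.2, 12.2, 14.9, 14.5 and 17.3 CPM in p53_activated embryos, against 20.1, 15.8, 17.5, 14.0 and 15.1 CPM in control embryos. The values of the groups overlapped, and the log2 fold change was -0.20 ± 0.15. Of its exon length 29.0% is shared with neighbouring genes, mostly with an antisense transcript.

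B2m (ENSMUSG00000060802, chromosome 2, 122147686 to 122153083), the light chain that every class I molecule needs, had 5.58, 7.98, 5.43, 6.32 and 7.21 CPM in p53_activated embryos. It had 9.1, 12.5, 10.4, 8.17 and 9.4 CPM in control embryos. All p53_activated embryos were below all control embryos, by a small gap, since the highest p53_activated value was 7.98 and the lowest control value 8.17 CPM. The log2 fold change was -0.60 ± 0.18. B2m was not called by edgeR, and was called by DESeq2 and with upper-quartile scaling. In the authors' deposited table B2m, Tap1 and Psmb9 were under the same threshold of adjusted p, as were 10.8% of all genes that have one there. Groups that do not overlap were seen for 4.54% of tested genes in the higher and 3.52% in the lower direction. Of the 7 tested genes of the set, Tap1 showed this as higher and B2m as lower. Nlrc5 also showed it as higher, but it was not tested and these shares do not cover it.

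H2-K1 (ENSMUSG00000061232, chromosome 17, 33996017 to 34000347), a classical class I heavy chain, had 35.2, 34.3, 16.8, 8.23 and 17.6 CPM in p53_activated embryos, against 19.4, 12, 27.7, 22.1 and 22.9 CPM in control embryos. The p53_activated group held both the 2 highest libraries and the lowest one. The other classical heavy chain, H2-D1 (ENSMUSG00000073411, chromosome 17, 35262730 to 35267499), had 13.3, 9.3, 6.22, 4.97 and 4.09 CPM in p53_activated embryos. Its control embryos had 5, 5.03, 6.02, 7.4 and 8.3 CPM, so the groups overlapped here too. Log2 fold changes were 0.10 ± 0.37 for H2-K1 and 0.25 ± 0.29 for H2-D1, each smaller than its error. Both genes were highest in p53_activated replicate 1, next in replicate 2, and varied more within the p53_activated group (coefficients of variation 52.9% and 49.5%) than within the control group (27.6% and 23.1%). That difference in spread was not tested.

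Psmb9 (ENSMUSG00000096727, chromosome 17, 34181987 to 34187764), the divergent neighbour of Tap1, had 0.826, 2.42, 2.29, 2.34 and 0.902 CPM in p53_activated embryos. It had 1.14, 0.708, 0.415, 0.574 and 0.364 CPM in control embryos. Replicates 2, 3 and 4 of the p53_activated group lay above all control embryos, while replicates 1 and 5 fell within the control range. The log2 fold change was 1.46 ± 0.48 and edgeR did not call it. Summed counts were 177 in p53_activated and 53 in control libraries, a ratio of 2.99 (95% exact interval 2.19 to 4.14, counting error only). As annotated, Psmb9 and Tap1 share 5.79% of the exon length of Psmb9, on opposite strands; how far reads of Tap1 entered the count of Psmb9 was not tested.

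The gap between the neighbours was read within each library as log2 CPM of Tap1 minus that of Psmb9. It was 5.06, 3.77, 3.84, 3.15 and 4.36 in p53_activated replicates 1 to 5, and -0.55, 1.54, 1.22, 0.35 and 1.42 in control replicates 1 to 5. In control embryos Tap1 was above Psmb9 in replicates 2 to 5 and below it in replicate 1, with means of 1.21 CPM for Tap1 and 0.64 CPM for Psmb9. The mean gap was 4.03 ± 0.71 in p53_activated and 0.80 ± 0.89 in control embryos (SD, n = 5 each), a difference of 3.24 on the log2 scale. The library with the highest Tap1 ratio over Psmb9, p53_activated replicate 1, had the least Psmb9 of its group. Of the counts in the adjoining genes Tap1, Psmb9, Psmb8 and Tap2, Tap1 took 88.0% to 93.6% in p53_activated libraries and 20.6% to 65.9% in control libraries. Since Tap1 was chosen for its rise, the gap and this share are descriptions that largely restate that rise.

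Psmb8 (ENSMUSG00000024338, chromosome 17, 34197721 to 34201454), an immunoproteasome subunit gene that begins next to the far end of Tap1, had 2, 16, 8, 13 and 6 counts in p53_activated libraries. It had 22, 6, 0, 11 and 7 counts in control libraries. The groups overlapped, with 45 summed counts in p53_activated and 46 in control libraries (ratio 0.875, 95% exact interval 0.567 to 1.35, counting error only). The groups did not differ beyond counting error. The interval leaves out the spread between embryos, and whether the response of Psmb8 differed from that of Psmb9 was not tested. Psmb10 (ENSMUSG00000031897, chromosome 8, 105935735 to 105938444) was the exception among the immunoproteasome genes in its level. It had 86.0, 80.2, 95.6, 69.3 and 81.5 CPM in p53_activated embryos, against 97.0, 77.5, 83.6, 83.1 and 86.0 CPM in control embryos. These ranges overlapped almost fully, and the log2 fold change was -0.05 ± 0.10.

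Set against the standard subunit whose place it takes, Psmb10 stood above Psmb7, while Psmb8 and Psmb9 stood far below Psmb5 and Psmb6. Per kb of exon, Psmb10 was at 48.4 ± 5.59 CPM and Psmb7 at 18.2 ± 3.24 CPM in p53_activated embryos. In control embryos these levels were 50.1 ± 4.2 and 18.1 ± 5.48 CPM per kb. Psmb10 was thus 219% to 301% of Psmb7 in p53_activated libraries and 208% to 596% in control libraries, the last value in control replicate 1 alone. Psmb9 was 0.0381% to 0.124% of Psmb6 in p53_activated libraries and 0.0161% to 0.0665% in control libraries, ranges that overlapped. Psmb8 was at most 0.101% of Psmb5 in p53_activated and 0.164% in control libraries. The standard subunits themselves were not called, with log2 fold changes of -0.13 ± 0.10 for Psmb5, 0.14 ± 0.10 for Psmb6 and 0.01 ± 0.21 for Psmb7 (edgeR). Psmb7 shares 11.8% and Psmb5 12.1% of exon length with another gene. Of the 14 standard 20S subunits, Psmb7 had the lowest mean (62.2 CPM in p53_activated and 61.9 CPM in control embryos), which raises the ratio of Psmb10 to it.

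**Figure D2:**
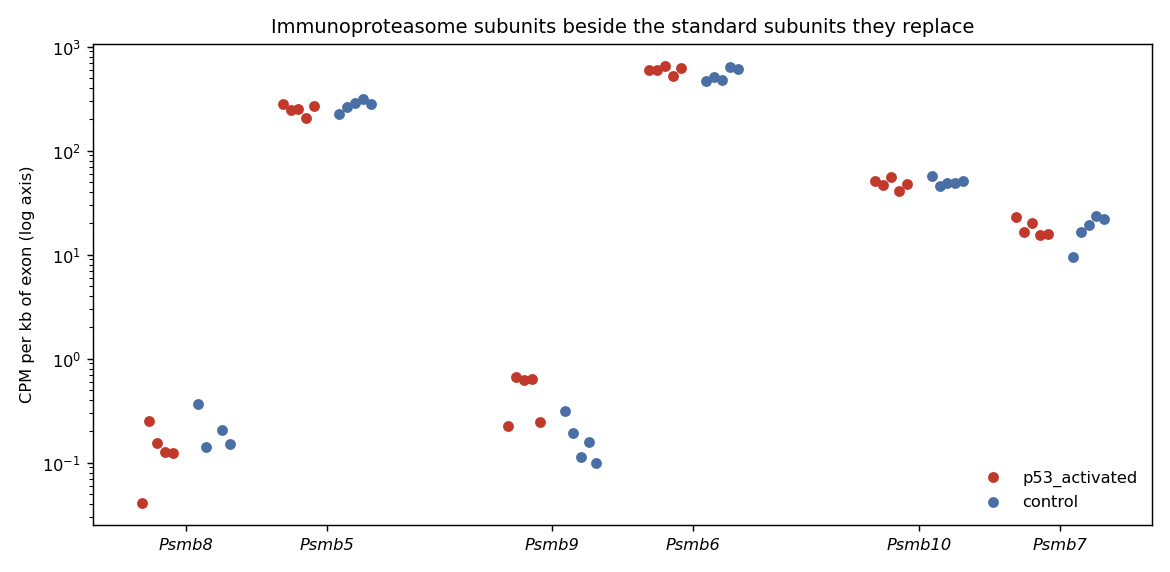
Levels are in CPM per kb of exon on a log axis for each immunoproteasome gene beside the standard subunit gene it replaces, with p53_activated libraries in red left of control libraries in blue; points are single embryos. Psmb8 (1 control library at 0 is not drawn) and Psmb9 lie below 1 CPM per kb, Psmb5 and Psmb6 above 200, and Psmb10 lies above Psmb7.

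Nlrc5 (ENSMUSG00000074151, chromosome 8, 94434356 to 94527272), the class I transactivator gene, had 9, 5, 4, 4 and 3 counts in p53_activated libraries and 0 in each of the 5 control libraries. Its groups did not overlap, but the level was very low, at 0.132 to 0.619 CPM in p53_activated embryos. With the floor of 3 counts over the control group in place of 0, the summed 25 counts of the p53_activated group were 7.46-fold higher. This value leaves out the counting error of the 25 counts and the spread between embryos, so it is no lower bound. Tested with no filter on low counts, Nlrc5, Tap2 and Psmb8 were not called by edgeR.

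The levels per kb of exon give the order of the 10 genes in p53_activated embryos: Psmb10 came first with 48.4 ± 5.59 CPM per kb, followed by H2-K1 (7.64 ± 4.04), B2m (7.56 ± 1.26), Tap1 (5.19 ± 1.23), Tapbp (3.97 ± 0.537) and H2-D1 (2.94 ± 1.45). Psmb9, Tap2, Psmb8 and Nlrc5 were all under 0.5 CPM per kb. From H2-K1 to H2-D1 the mean ± SD of each gene overlapped that of the next in this order. In control embryos B2m (11.5 ± 1.92) and H2-K1 (7.09 ± 1.96) followed Psmb10 (50.1 ± 4.2), with Tapbp at 4.55 ± 0.661 and H2-D1 at 2.46 ± 0.568. Tap1 was then at 0.222 ± 0.115 CPM per kb, next to Psmb9 (0.175 ± 0.0845) and Psmb8 (0.174 ± 0.134), and the mean ± SD of these overlapped.

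The other genes around Tap1 were read to see whether the rise extended along the MHC region. Within 500 kb to either side, 81 further genes that are not of the set were listed and 35 tested, of which 3 rose, 2 fell and 30 were not called by edgeR (median log2 fold change 0.01), beside shares of 4.49% higher and 2.74% lower over all tested genes. Brd2, a bromodomain gene with its start coordinate 75.5 kb below that of Tap1, rose to 90.6 CPM in p53_activated embryos, against 59.6 CPM in control embryos (log2 fold change 0.61 ± 0.14, adjusted p = 0.0159). Farther away, Kank3 at 377 kb (2.45 ± 0.15, adjusted p = 1.81e-08) and the kinesin gene Kifc1 at 311.9 kb (0.82 ± 0.09, adjusted p = 1.61e-05) rose. The small GTPase gene Rab11b fell by 0.33 ± 0.09 on the log2 scale (adjusted p = 0.0416), and Egfl8 fell by 1.07 ± 0.26 (adjusted p = 0.0233). Rab11b lost its call in 12 of 20 other settings, which include leaving out any 1 of p53_activated replicates 1, 2, 3 and 5 or control replicates 1, 2, 4 and 5 (adjusted p up to 0.117). Egfl8 lost it in 4, when p53_activated replicate 2, control replicate 1, control replicate 2 or both of these controls were left out, the last a choice made after seeing the data. Brd2 lost it in 2, when p53_activated replicate 5 or control replicates 1 and 2 were left out. Among class II genes near Tap1, which act in antigen presenting cells, H2-Ab1 had 3.55 ± 2.12 CPM in p53_activated and 7.60 ± 2.02 CPM in control embryos (adjusted p = 0.114).

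**Figure D3:**
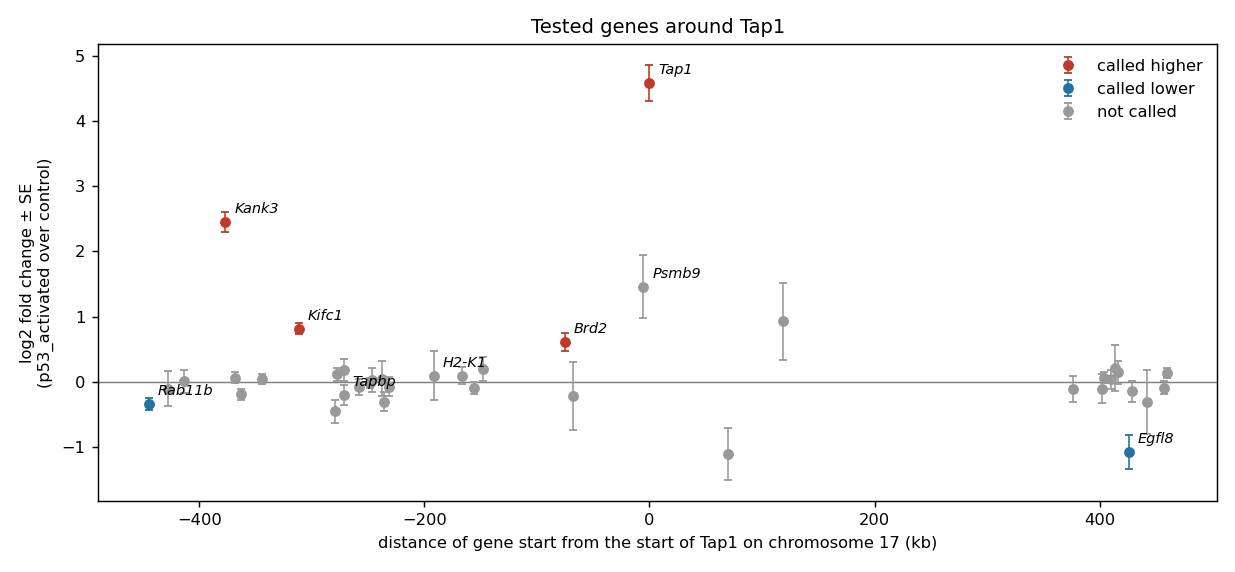
Log2 fold change ± SE (p53_activated over control) of each tested gene against the distance in kb of its start coordinate from that of Tap1; red genes were called higher, blue lower and grey not called. Tap1 (4.58) stands highest, Psmb9 (1.46, not called) beside it, and the other called genes Kank3, Kifc1, Brd2, Rab11b and Egfl8 lie at least 75.5 kb away.

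Related genes were counted over 8 lists. Of 13 tested genes that trim, translocate or help load peptides, Sec61a1, a translocon subunit, rose (log2 fold change 0.59 ± 0.17, adjusted p = 0.0476), none fell, and the median was 0.12. That call was lost in 14 of 20 other settings, among them without each of p53_activated replicates 2, 4 and 5 and control replicates 1 to 5 in turn (adjusted p up to 0.118). At an unadjusted p under 0.05 this list had 4 higher (Canx, Lnpep, Sec61a1 and Uggt1) and 1 lower (Sec61b). DESeq2 called Sec61a1 higher and Sec61b lower, and limma-voom called none. The loading chaperones Calr (-0.08 ± 0.10, adjusted p = 0.666) and Pdia3 (0.11 ± 0.09, adjusted p = 0.549) and the protease Blmh (0.06 ± 0.09, adjusted p = 0.742) were not called.

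Among 11 tested class I and class I-like chains other than H2-K1 and H2-D1, H2-Q7 fell, no gene rose, and the median of the log2 fold changes was -0.44. H2-Q7, a non-classical class I gene, had 10, 9.03, 12.2, 12.3 and 14.6 CPM in p53_activated embryos, against 26.6, 24.4, 19.6, 20.3 and 22.2 CPM in control embryos. All p53_activated embryos were below all control embryos, and the log2 fold change was -0.96 ± 0.15 (edgeR adjusted p = 0.00109). The call held in all 20 other settings, which gave -1.04 to -0.83, but H2-Q7 has near-identical relatives, so its count is uncertain. The antibody receptor chain Fcgrt (0.08 ± 0.12, adjusted p = 0.756), the class I gene H2-Bl (-0.67 ± 0.31, adjusted p = 0.21) and the lipid-presenting chain Cd1d1 (-0.50 ± 0.28, adjusted p = 0.316) were not called. At an unadjusted p under 0.05 there were 0 higher and 2 lower (H2-Q7 and H2-Bl), and DESeq2 and limma-voom each called H2-Q7 alone.

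No standard 20S subunit was called among 14 tested (median log2 fold change -0.13), whether by edgeR, DESeq2 or limma-voom, and 0 had an unadjusted p under 0.05. Psma6 (-0.13 ± 0.09, adjusted p = 0.396), Psmb4 (-0.09 ± 0.08, adjusted p = 0.535) and Psmb6 had the highest CPM of the list. Of 28 tested activators, assembly factors and cap subunits, Psme1 fell and none rose (median log2 fold change -0.03). At an unadjusted p under 0.05 there were 0 higher and 3 lower (Psme1, Psme2 and Psmg4), and DESeq2 and limma-voom each called Psme1 alone. Psme1, a subunit of the interferon-inducible PA28 activator, had 101 ± 4.07 CPM in p53_activated and 130 ± 13.9 CPM in control embryos (SD, n = 5 each). Its log2 fold change was -0.36 ± 0.09 (edgeR adjusted p = 0.022). Its partner Psme2 had 123 ± 8.99 CPM in p53_activated and 147 ± 14.5 CPM in control embryos and was not called (-0.26 ± 0.09, adjusted p = 0.0935). The call of Psme1 was lost in 5 of 20 settings: when p53_activated replicate 5, control replicate 2, control replicate 5 or control replicates 1 and 2 were left out, and with the replicate block (adjusted p up to 0.0967). Psmd4 (0.05 ± 0.09, adjusted p = 0.786), Psmc5 (0.08 ± 0.09, adjusted p = 0.638) and Psmd2 (0.00 ± 0.08, adjusted p = 0.994) were not called.

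Of 28 tested regulators of class I genes and of interferon signalling, 0 were called by edgeR or limma-voom (median log2 fold change 0.00). At an unadjusted p under 0.05 there were 2 higher and 5 lower, and DESeq2 called 2 higher, Rfx5 and Nfkb2. The factors with the highest CPM were Nfyc (-0.24 ± 0.08, adjusted p = 0.0939), Irf3 (-0.20 ± 0.09, adjusted p = 0.192) and Rela (-0.08 ± 0.14, adjusted p = 0.774).

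Of 37 interferon-stimulated genes 15 were tested, 2 rose and none fell (median 0.29). Ifitm3, which restricts virus entry, had 9.36, 7.25, 11.5, 6.98 and 7.84 CPM in p53_activated embryos, against 1.48, 0.315, 1.7, 3.45 and 2.55 CPM in control embryos. The groups did not overlap, and the log2 fold change was 2.17 ± 0.39 (edgeR adjusted p = 0.00341). Rnf213, a large ubiquitin ligase gene, had 4.03 ± 2.17 CPM in p53_activated and 1.12 ± 0.601 CPM in control embryos with overlapping groups (1.89 ± 0.51, adjusted p = 0.0352), and it lost its call in 8 of 20 other settings, among them without p53_activated replicates 2, 4 or 5 or control replicates 1, 2 or 4 (adjusted p up to 0.14). Its neighbours in the family of Ifitm3, Ifitm1 (-1.19 ± 0.41, adjusted p = 0.0943) and Ifitm2 (-0.20 ± 0.19, adjusted p = 0.58), were not called by edgeR, nor were Eif2ak2 (-0.27 ± 0.21, adjusted p = 0.489) and Adar (0.78 ± 0.24, adjusted p = 0.0616). At an unadjusted p under 0.05 there were 4 higher and 2 lower, DESeq2 called 4 higher and 1 lower (Ifitm1), and limma-voom called Ifitm3 alone. The other 22 genes of this list, the classical markers Isg15, Mx1 and Ifit1 among them, were too low to be tested.

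Of 9 listed relatives of Tap1 in the B family of ABC transporters, 4 were tested. Of these, 0 were called by edgeR, DESeq2 or limma-voom, with 0 at an unadjusted p under 0.05 (median 0.04). Among them were Abcb8 (0.09 ± 0.10, adjusted p = 0.67) and Abcb10 (0.60 ± 0.33, adjusted p = 0.298). Abcb1b, too low to be tested, had 1.04 ± 0.581 CPM in p53_activated and 0.0778 ± 0.108 CPM in control embryos, with overlapping groups. It was named after its values were seen, and the other untested relatives had means of at most 0.482 CPM. With no filter on low counts, this list had 1 call by edgeR. It also had 1 call without p53_activated replicate 5 or without control replicate 1, 3 or 5. Which gene was called in those settings is not reported here. Of the class II genes 3 were tested and 0 called by edgeR or limma-voom (median -0.22). DESeq2 called 1 lower, H2-Ab1, as did the unadjusted p under 0.05; H2-DMa (-0.22 ± 0.52, adjusted p = 0.85) and H2-Eb1 (0.93 ± 0.59, adjusted p = 0.382) were not called. In all 8 lists together 3 of 116 tested genes (2.59%) were called higher and 2 (1.72%) lower, against 4.49% higher and 2.74% lower of all tested genes. These lists were chosen with results known, and the difference in shares was not tested.

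**Figure D4:**
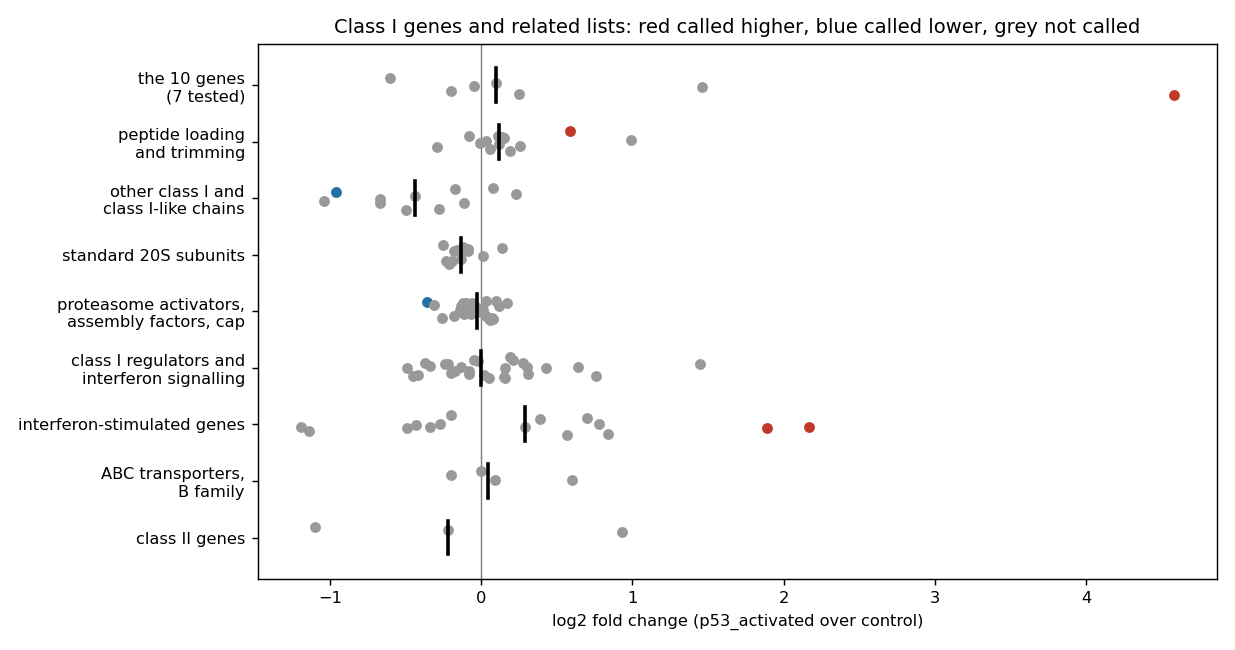
Log2 fold change (p53_activated over control) of each tested gene of the 10 and of 8 related lists, with 1 point per gene and the list median as a black bar; red genes were called higher, blue lower and grey not called, and height within a list has no meaning. Tap1 lies at 4.58, while the next highest called genes are Ifitm3 (2.17) and Rnf213 (1.89).

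Immune and vessel cells carry more class I than embryonic mesenchyme, so their markers were summed beside the heavy chains. The 12 macrophage markers summed to 33.8 to 73.8 CPM in p53_activated and 18.9 to 93.9 CPM in control libraries, and the 10 endothelial markers to 80.8 to 110 CPM and 72.0 to 120 CPM, with none of the 10 and 8 tested genes called by edgeR. The largest part of the endothelial sum was Egfl7, with means of 54.4 CPM in p53_activated and 54.6 CPM in control embryos. The 8 lymphocyte markers reached at most 1.88 CPM in p53_activated and 1.53 CPM in control libraries, with Cd3d and Gzma at 0 counts throughout. Erythroid genes ranged from 493 to 5940 CPM in p53_activated and from 817 to 4430 CPM in control libraries. Macrophage markers summed to 40.4, 43.9, 36.4, 73.8 and 33.8 CPM in p53_activated replicates 1 to 5, beside H2-K1 at 35.2, 34.3, 16.8, 8.23 and 17.6 CPM. In control replicates 1 to 5 they summed to 93.9, 42.4, 18.9, 51.8 and 49.5 CPM, beside H2-K1 at 19.4, 12, 27.7, 22.1 and 22.9 CPM. The part of such cells in the levels of the 10 genes was not tested.

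The genes whose profile over the 10 libraries was most like that of Tap1 were found by the root mean square difference of log2 CPM, each gene centred on its own mean, among 11187 genes. They were the carboxypeptidase gene Cpz (0.41), Def6 (0.46), Zfp365 (0.53), Cdkn1a (0.66) and the phosphatase gene Ptprv (0.67). Cpz had 63.2 ± 15.5 CPM in p53_activated and 2.04 ± 0.826 CPM in control embryos, and Zfp365 23.4 ± 2.91 and 1.81 ± 0.533 CPM. By the same measure the other 9 genes of the class I set ran from 1.46 for Nlrc5 and 1.77 for Psmb9 to 2.58 for B2m. The measure is set mainly by the difference between genotypes for which Tap1 was chosen, so it restates the fold changes and adds nothing to them.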

How the data were processed

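Gene counts of 10 libraries were deposited by the authors as raw counts per Ensembl gene, and each column was matched to its sample through the number the labels give. A second deposited table holds the authors' mean normalized count (a signal), log2 fold change with standard error, Wald statistic (a score), and unadjusted and adjusted p-value. HISAT2 2.0.4, SAMtools 1.3.1, HTSeq 0.6.1, DESeq2 1.14.1 and GRCm38 are named, without roles, per the submitters' processing notes; which annotation release was counted, and whether by strand, is not given in the sources used here.

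Genes were kept by filterByExpr (minimum count 10, total 15), normalised by TMM, and fitted in edgeR 4.0.16 under R 4.3.3 (quasi-likelihood test, robust, no covariate), with Benjamini-Hochberg adjustment over 14528 genes. SE is the log2 fold change over the square root of F. For log2 CPM the prior count was 2. The fit was tested on simulated data. GENCODE M21 (GRCm38), which held 99.3% of the identifiers, gave gene positions, exon unions and overlaps. The 10 genes, the lists and the motifs were chosen with earlier results of these data known. Named genes are the 10, label checks, standard subunits, called neighbours and 5 genes most like Tap1. In each list, up to 6 called and 3 highest uncalled genes are named. Psme2, Ifitm1, Abcb1b and the genes that only another tool called were added after their values were seen. Alternatives were RLE, upper-quartile and no scaling, other filters, DESeq2 1.42.0, limma-voom (limma 3.58.1), non-robust dispersions, a replicate block, and leaving out libraries. Each library came from a separate embryo. Depth, by library totals of 12368058 to 28379562 counts, limits genes below 1 CPM, and counting intervals and floors cover counting error only. All library pairs within a group differed by more than counting noise (chi-square divided by its degrees of freedom was at least 16.1). Single values of some listed genes are not reported here.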

Additional observations from a re-analysis of the deposited data

Results flagged for a closer look

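Within groups of 5, a single library stood far from the other 4 in 3 of 25 groups of values looked at. The cut used flags about 1 in 20 groups by chance when values follow a normal distribution. That rate need not hold for low counts or for ratios, so no excess is read from these flags. Tap1 was at 2.28 CPM in control replicate 2, against 0.739 to 1.17 CPM in the other control embryos. Nlrc5 was at 0.619 CPM in p53_activated replicate 1, against 0.132 to 0.263 CPM in the other p53_activated embryos. The level of Psmb10 per kb was 596% of that of Psmb7 in control replicate 1, against 208% to 278% in the other control embryos; Psmb7 was at 32.6 CPM in that library and Psmb10 at 97.0 CPM.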

How the results depend on the processing

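Tap1, chosen for its rise, was called higher in all 20 other settings, which is a description and no support for the rise. DESeq2 called 1676 genes in all, 2 of the 10 class I genes higher (Tap1 and Psmb9) and 1 lower (B2m), 2 peptide loading partners, 2 regulators, 5 interferon-stimulated genes, 1 class II gene and 17 genes of all lists and neighbours. Upper-quartile scaling called 1 of the 10 lower (B2m). The ABC transporters had 1 call with no filter, the regulators 1 with total counts, and the interferon-stimulated genes 1 with limma-voom. The peptide loading partners had 0 with limma-voom, non-robust dispersions or the replicate block. The same-numbered libraries did not pair (1 of 5 correlations of deviations over 0.1, with 1 of 5 p53_activated and 1 of 5 control libraries best with its own number); the replicate block gave 0 calls in the activator and cap list and 1 class II call, and H2-K1 at -0.04. Without control replicates 1 and 2, chosen after seeing the data, 656 genes were called, 5 of all lists and neighbours, 2 neighbours, 1 interferon-stimulated gene, 1 standard 20S subunit and 0 in the loading and the activator lists; H2-K1 was at -0.12, and with limma-voom at -0.17.

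Leaving out single libraries gave 636 to 1025 calls in all, 5 to 12 over lists and neighbours, 3 to 5 neighbours, 1 to 4 interferon-stimulated genes, 0 to 2 in the activator list and 0 to 1 in the loading and ABC lists. It put H2-K1 between -0.12 and 0.32, H2-D1 between -0.05 and 0.41 and Psmb10 between -0.10 and 0.01. The difference between Tap1 and Psmb9 was 2.90 to 3.46, and 3.23 with a prior count of 0.5. Psmb8, at 0.101% of Psmb5 with the longest transcripts (0.0572% with exon unions), moved most with the length used. The causes of these changes were not tested. Counts limit Tap2, Psmb8, Psmb9 and Nlrc5 most.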

Other observations

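Among the related lists, the factor gene Rfx5, which encodes a DNA-binding subunit of the complex at MHC promoters, had 1.38, 1.16, 1.51, 2.37 and 2.57 CPM in p53_activated embryos, against 0.91, 1.1, 0.332, 0.128 and 0.874 CPM in control embryos. The groups did not overlap, but edgeR did not call it (log2 fold change 1.45 ± 0.51, adjusted p = 0.0993), and 26.8% of its exon length overlaps an antisense transcript. The aminopeptidase gene Lnpep, which trims peptides in endosomes, had 4.7 ± 1.61 CPM in p53_activated and 2.4 ± 1.33 CPM in control embryos (SD, n = 5 each; 0.99 ± 0.37, edgeR adjusted p = 0.121). The interferon-stimulated gene Ifi27 had 0.754 ± 0.414 CPM in p53_activated and 1.73 ± 0.714 CPM in control embryos and was not called (-1.14 ± 0.46, adjusted p = 0.153). These 3 genes were named after their values were seen.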
